A study of Mus musculus with 6 samples.

Results

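Levels of 46 classical interferon-stimulated genes (ISGs) were compared in the brains of adult Bahd1-KO and Bahd1-WT mice. The genes were taken by gene name from the deposited table of read counts, where 46 of the 46 names were found among 53801 genes. Type I interferons bind a receptor shared by nearly all cells, which activates the kinases JAK1 and TYK2 and a transcription factor complex that holds STAT2 and IRF9. The complex binds a short promoter sequence, the interferon-stimulated response element, and switches on ISGs whose products sense viral RNA, block viral entry or translation, modify proteins with ubiquitin-like ISG15, or feed back on the pathway. In the brain a low level of ISG expression is maintained without infection, in neurons and in glia, and it is induced strongly by viruses and in ageing and inflammation.

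RNA was prepared from one brain hemisphere of each of 3 Bahd1-KO mice (genotype Bahd1-/-) and 3 Bahd1-WT mice (Bahd1+/+), all adult C57BL/6 animals about 70 weeks old and without any treatment beyond the knockout. The knockout removes Bahd1 in the whole animal from conception, so a value for one hemisphere sums over all its cell types and over lifelong absence of the gene. The question was which genes differ in level when BAHD1, a scaffold protein of a chromatin-repressive complex with HDAC1 and HDAC2, is missing. Values are listed below in the order of replicates 1, 2 and 3 of each genotype.

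A promoter sequence that the choice of names did not use was present in 16 of the 33 ISGs that have a promoter window. The core of the interferon-stimulated response element was searched as GAAA and GAAA set apart by NN, where N is any base, on both strands (TTTC NN TTTC on the other) in the RefSeq promoter windows of build GRCm38.p6, which run from 250 bases before a gene's start to 50 bases after it. Of the 46 genes, 33 have a window in that table, and 16 of the 33 (48.5%) hold the motif, against 3.99% of all 27025 genes with a window. Per window the shares were 44.4% of 36 and 3.44% of 32851. The form without the last A, which includes every match of the full one, was in 54.5% of the 33 genes (9.76% of all genes), and the form with a further C at its end was in 36.4% (0.944% of all). The following stretches, each on the strand of its gene and lying wholly before the RefSeq start, show 1 match of the motif in capitals in 4 genes that were lower and 4 that were higher in Bahd1-KO brains.
Ifit1, chr19:34640789-34640828, plus strand: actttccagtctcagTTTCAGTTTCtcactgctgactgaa
Rsad2, chr12:26456548-26456587, minus strand: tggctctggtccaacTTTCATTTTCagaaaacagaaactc
Ifit3, chr19:34583392-34583431, plus strand: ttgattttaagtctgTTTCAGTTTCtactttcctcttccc
Oas3, chr5:120777710-120777749, minus strand: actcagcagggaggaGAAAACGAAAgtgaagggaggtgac
Oas1c, chr5:120812598-120812637, minus strand: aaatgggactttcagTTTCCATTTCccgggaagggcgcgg
Ifitm2, chr7:140955983-140956022, minus strand: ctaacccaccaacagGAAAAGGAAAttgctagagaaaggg
Isg15, chr4:156200866-156200905, minus strand: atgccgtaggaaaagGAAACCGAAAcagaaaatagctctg
Bst2, chr8:71537572-71537611, minus strand: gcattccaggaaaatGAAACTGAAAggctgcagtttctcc
The matches in capitals lay between 36 bases (Ifitm2) and 114 bases (Bst2) before the start. Ifit1, Ifit3, Oas1c, Isg15 and Bst2 hold further matches, which in Oas1c, Isg15 and Bst2 overlap the one shown and are left in lower case. The stretch of Ifitm2 reaches past the gene's start in the annotation used for the gene coordinates below. Ifit3b holds the same 40 letters as Ifit3, at chr19:34607788-34607827. Genes with and without the motif went in both directions. Of the 16 with it, 10 were lower and 6 higher in Bahd1-KO brains, the median log2 fold change being -0.32, and among the 17 without it 11 were lower and 6 higher, the median being -0.21. A match describes the letters of these windows and shows no binding.

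The reported test of the difference between genotypes called few genes of any kind, and 0 of the 46 ISGs. By edgeR's quasi-likelihood test, 0 of the 46 had a Benjamini-Hochberg adjusted p under 0.05 together with a 2-fold difference, against 0.00834% of the 23975 genes tested, which is 2 genes. The Wald test of DESeq2, with its normal prior on fold changes, called 4 of the 46 (10.5% of all genes), with Ifi44 and Ifitm7 lower (0.909% of all genes) and Dhx58 and Bst2 higher (9.61% of all genes). The same 4 were called by DESeq2 without the prior (11.5% of all genes) and by edgeR with no filter beyond 1 count (8.45% of all genes), Dhx58 and Ifi44 by edgeR with total counts (8.37% of all genes), and 7 without Bahd1-KO replicate 1 (16.8% of all genes), whereas with the replicate number as a block there were 0 (0.0292% of all genes). Without the 2-fold limit, DESeq2 with the prior gave 6 ISGs lower and 2 higher at an adjusted p under 0.05. Of all 23975 genes tested, 684 were lower and 3423 higher by that criterion. With the offset for GC content and length described below, the ISGs numbered 1 and 1, and all genes 445 and 2403. The ISGs lay on both sides of 0. In Bahd1-KO brains 30 were lower and 16 higher, while 53.4% of all genes were lower, and the median log2 fold change was -0.21 over the ISGs and -0.06 over all genes. Lowest were Ifitm7 and Ifi44 (log2 fold changes -1.23 and -1.14), and highest were Dhx58 and Bst2 (1.17 and 1.16).

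Weaker criteria caught more of them, most often on the lower side. An adjusted p under 0.1 was reached by 8 ISGs that were lower (4.77% of all genes tested) and by 2 that were higher (14.7% of all genes tested). An unadjusted p under 0.05 was reached by 16 that were lower (12% of all genes) and 6 that were higher (19.9% of all genes). All 3 Bahd1-KO values lay below all 3 Bahd1-WT values for 20 ISGs, as for 19.3% of all genes, and above them for 5, as for 20.6% of all genes. The summed level of the 46 genes was 354, 379 and 332 CPM (counts relative to the TMM-normalized library size) in the Bahd1-WT mice and 305, 309 and 308 CPM in the Bahd1-KO mice, so that the genotypes did not overlap in this sum. With the offset for GC content and length described below they did, at 344, 345 and 308 CPM against 299, 334 and 325 CPM. The median over the 46 genes of the log2 level relative to the Bahd1-WT mean overlapped even without the offset, at 0.03, 0.07 and -0.13 in the Bahd1-WT and -0.22, -0.09 and -0.27 in the Bahd1-KO mice.

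**Figure D1:**
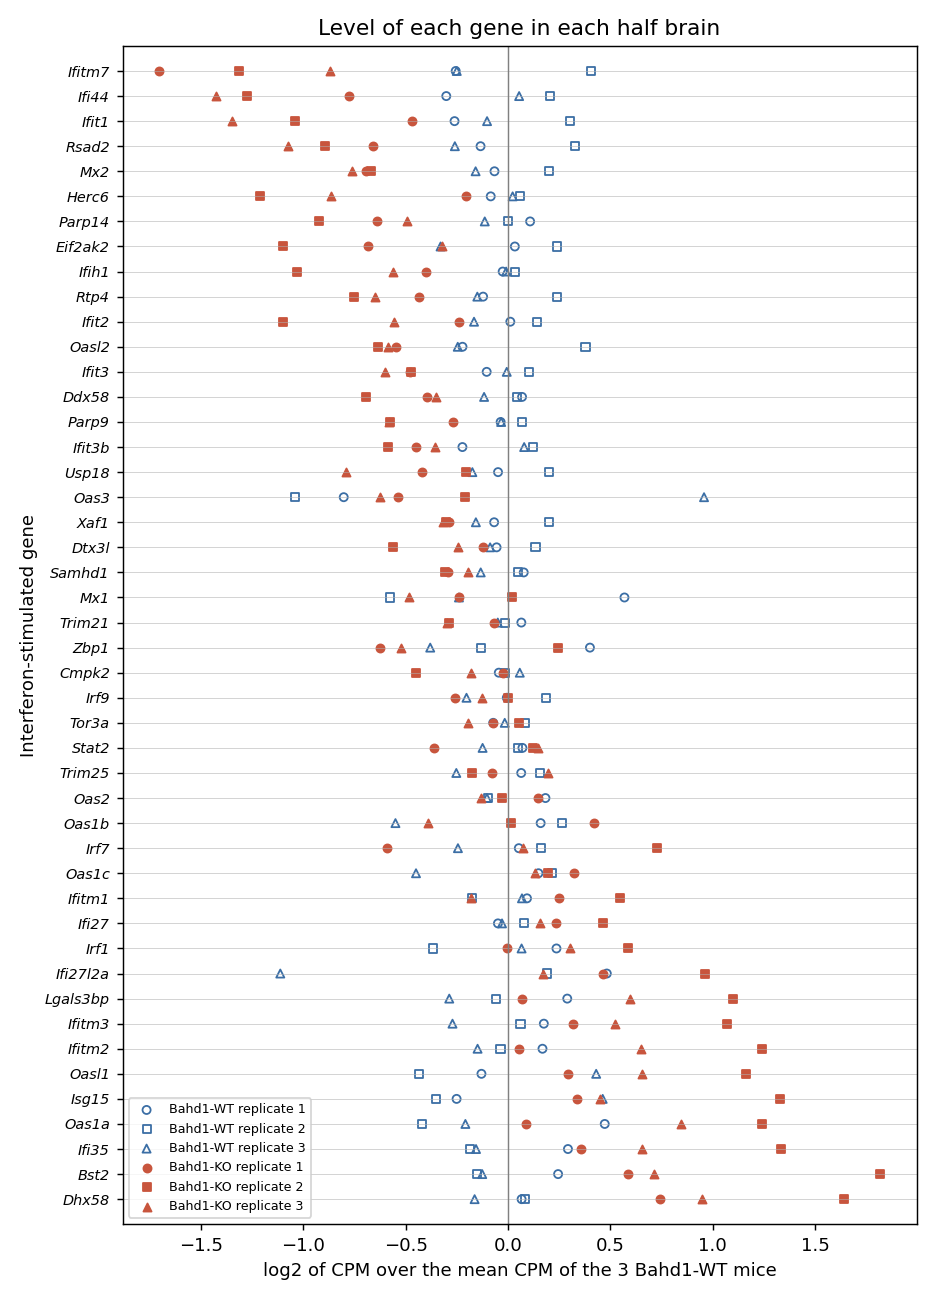
Level of each of the 46 interferon-stimulated genes in each mouse, as the log2 of its CPM over the mean CPM of the 3 Bahd1-WT mice (horizontal axis), with genes ordered by fold change from the lowest at the top. Open blue symbols are Bahd1-WT and filled red symbols Bahd1-KO replicates, and the genotypes do not overlap in 20 genes with lower and 5 with higher Bahd1-KO values. Bahd1-KO replicate 2 (square) lies farthest out in those 5.

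The libraries held between 42297150 and 93557948 counts, and 3 counts, taken as the detection floor, equal 0.0315 to 0.069 CPM. Bahd1 itself had 844 to 1383 counts in Bahd1-WT and 0 to 14 in Bahd1-KO mice. Some libraries stood apart by markers of other tissues. The summed level of 8 lung epithelium markers was 119, 27.7 and 2.55 CPM in the Bahd1-WT mice and 0.552, 1.46 and 1.00 CPM in the Bahd1-KO mice, where 4, 1 and 2 of the 8 were at 0. Choroid plexus markers summed to 378, 359 and 279 CPM in Bahd1-WT and to 461, 1084 and 615 CPM in Bahd1-KO mice, without overlap. Most of that sum came from Ttr (309, 285 and 213 CPM against 402, 1018.5 and 554 CPM), and 3 of the 6 markers were lower. The median log2 fold change of that list was 0.15, and -0.02 with the offset described below. Bahd1-KO replicate 2 was highest in the choroid plexus sum, through Ttr, and in red blood cell markers (92.6 CPM against 10.8 to 30.3 in the other 5 mice). Microglia markers, 11 of 11 detected in every mouse, summed to 443, 368 and 405 CPM in Bahd1-WT and 422, 431 and 430 CPM in Bahd1-KO mice, and T cell markers to 9.10 to 10.9 and 9.56 to 12.5 CPM. Summed markers of B cells reached at most 3.04 CPM and those of neutrophils at most 8.09 CPM in any mouse, and border and alveolar macrophage markers ran from 19.4 to 35.3 CPM, highest in Bahd1-WT replicate 1, with 6 of 8 lower and a median log2 fold change of -0.57. Plasmacytoid dendritic cell markers, a list that includes Bst2, summed to 369, 365 and 379 CPM in Bahd1-WT and to 320, 235 and 327 CPM in Bahd1-KO animals, without overlap. Most of that sum came from Tcf4, which neurons also express, and 3 of the 6 markers were lower. Oligodendrocyte markers summed to 5321, 5853 and 5060 CPM in the Bahd1-WT replicates against 5303, 8245 and 7039 CPM in the Bahd1-KO replicates, and astrocyte markers to 6335, 6010 and 5800 CPM against 5194, 4868 and 5919 CPM, each with overlap. Of the 6 oligodendrocyte markers 3 were lower (median log2 fold change 0.31). Mbp among them had 1412, 1317 and 1202 CPM in Bahd1-WT against 1601, 4373 and 2870 CPM in Bahd1-KO mice. Slc1a2 and Slc1a3, both lower (-0.49 and -0.36), made up most of the astrocyte sum. Of the 6 astrocyte markers 3 were lower, while Gfap, Aldh1l1 and Aldoc were higher, and the median was 0.15. The part of these cell types in the ISG values was not tested. The ISG median of -0.21 was -0.16 without Bahd1-WT replicate 1, -0.22 without Bahd1-WT replicate 2 and -0.20 without Bahd1-KO replicate 2, with 25, 28 and 29 of the 46 genes lower. In such bulk RNA, fewer cells of a type and less RNA per cell cannot be told apart.

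Members of the IFIT family, which bind foreign or unmethylated viral RNA and block its translation, and the enzymes of the ISG15 system were mostly lower. Of these 7 genes, 6 were lower and 1 higher (median log2 fold change -0.52), and no sign turned under RLE, upper-quartile or total-count scaling. Ifit1 (ENSMUSG00000034459, chr19:34640871-34650009) had 7.89, 11.7 and 8.81 CPM in Bahd1-WT and 6.83, 4.60 and 3.71 CPM in Bahd1-KO mice, the log2 fold change being -0.91 (standard error, SE, 0.28, edgeR adjusted p = 0.0772). The highest Bahd1-KO value thus lay just under the lowest Bahd1-WT value. Ifit2 had 26.9, 29.4 and 23.8 CPM against 22.6, 12.5 and 18.2 CPM, with log2 fold change -0.59 (SE 0.24, adjusted p = 0.131), and -0.39 without Bahd1-KO replicate 2.

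Ifit3, one of the 5 ISGs with the highest level per kilobase, showed the tightest replicates of the family. It had 15.5, 17.9 and 16.6 CPM in Bahd1-WT and 11.95, 11.99 and 11.0 CPM in Bahd1-KO mice (log2 fold change -0.52, SE 0.17, adjusted p = 0.0907). Ifit3b had 7.99, 10.1 and 9.84 CPM against 6.83, 6.21 and 7.27 CPM (log2 fold change -0.46, SE 0.20, adjusted p = 0.15). The genotypes did not overlap in either gene. Their longest transcripts agree in 95.3% of bases, so the division of reads between these neighbours is uncertain.

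Herc6, the main ligase that attaches ISG15 in the mouse, had 15.4, 17.0 and 16.6 CPM in Bahd1-WT and 14.2, 7.06 and 8.98 CPM in Bahd1-KO mice (log2 fold change -0.70, SE 0.26, adjusted p = 0.116). The Bahd1-WT mice were close to each other here, while Bahd1-KO replicate 1 lay near them and the other two well below. Herc6 shares 1269 exonic bases with Gm45193 on the same strand, where reads cannot be assigned to one gene. Usp18, which removes ISG15 and restrains the interferon receptor, had 2.22 ± 0.30 CPM (SD, n = 3) and 1.62 ± 0.32 CPM, with no overlap and a log2 fold change of -0.45. Isg15 itself was on the other side, with 0.382, 0.356 and 0.627 CPM in Bahd1-WT and 0.575, 1.14 and 0.622 CPM in Bahd1-KO mice. The genotypes overlapped for Isg15, and its log2 fold change of 0.80 had an SE of 0.37 (adjusted p = 0.173) and was 0.39 without Bahd1-KO replicate 2.

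The antiviral effectors followed a like order, 9 of 10 lower (median log2 fold change -0.28), and none of these signs turned under the other scalings. Rsad2 (viperin), an enzyme that makes a chain-terminating nucleotide, had 3.38, 4.65 and 3.10 CPM in Bahd1-WT and 2.34, 1.995 and 1.76 CPM in Bahd1-KO mice (log2 fold change -0.87, SE 0.25, adjusted p = 0.0688). Cmpk2, its neighbour and partner in nucleotide supply and the second highest ISG per kilobase, had 37.7, 38.5 and 40.4 CPM against 38.2, 28.5 and 34.2 CPM, which overlapped (log2 fold change -0.21). The genotypes did not overlap in Rsad2, and the difference between these neighbours was not tested.

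Mx2 (ENSMUSG00000023341, chr16:97535308-97560900), a dynamin-like GTPase, had 1.45, 1.75 and 1.36 CPM in Bahd1-WT and 0.942, 0.956 and 0.898 CPM in Bahd1-KO mice. All Bahd1-KO values were close to each other and far below the Bahd1-WT values (log2 fold change -0.70, SE 0.23, adjusted p = 0.0861). Its paralog Mx1 had 0.435 ± 0.19 and 0.373 ± 0.065 CPM, which overlapped. The annotation gives Mx2, like Oas1b, as a polymorphic pseudogene, and the other 44 ISGs as protein-coding.

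Eif2ak2 (PKR), the kinase that stops translation on double-stranded RNA, had 15.4, 17.8 and 11.999 CPM in Bahd1-WT and 9.40, 7.04 and 12.04 CPM in Bahd1-KO mice, with overlap in one pair of mice (log2 fold change -0.67, SE 0.25, adjusted p = 0.117). Rtp4, a chaperone with antiviral activity, had 4.34, 5.57 and 4.25 CPM against 3.49, 2.80 and 3.01 CPM, with no overlap (log2 fold change -0.61, SE 0.22, adjusted p = 0.108), and shares 296 exonic bases with Gm45338 on its strand. Samhd1, which degrades the nucleotides that viruses need, and Xaf1, a promoter of cell death, were also lower in every Bahd1-KO mouse, with log2 fold changes of -0.26 and -0.30 at unadjusted p-values of 0.141 and 0.166. Zbp1, the sensor of Z-form nucleic acid, had 0.248 ± 0.071 and 0.209 ± 0.074 CPM.

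Bst2 (tetherin, ENSMUSG00000046718, chr8:71534255-71537456), which holds budding virus at the cell surface, was the exception among the effectors. It had 1.32, 1.00 and 1.02 CPM in Bahd1-WT and 1.68, 3.94 and 1.83 CPM in Bahd1-KO mice (log2 fold change 1.16, SE 0.36, adjusted p = 0.078). Bahd1-KO replicate 2 stood well above the other mice, and leaving it out gave the lowest log2 fold change of the 6 omissions, 0.65.

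**Figure D2:**
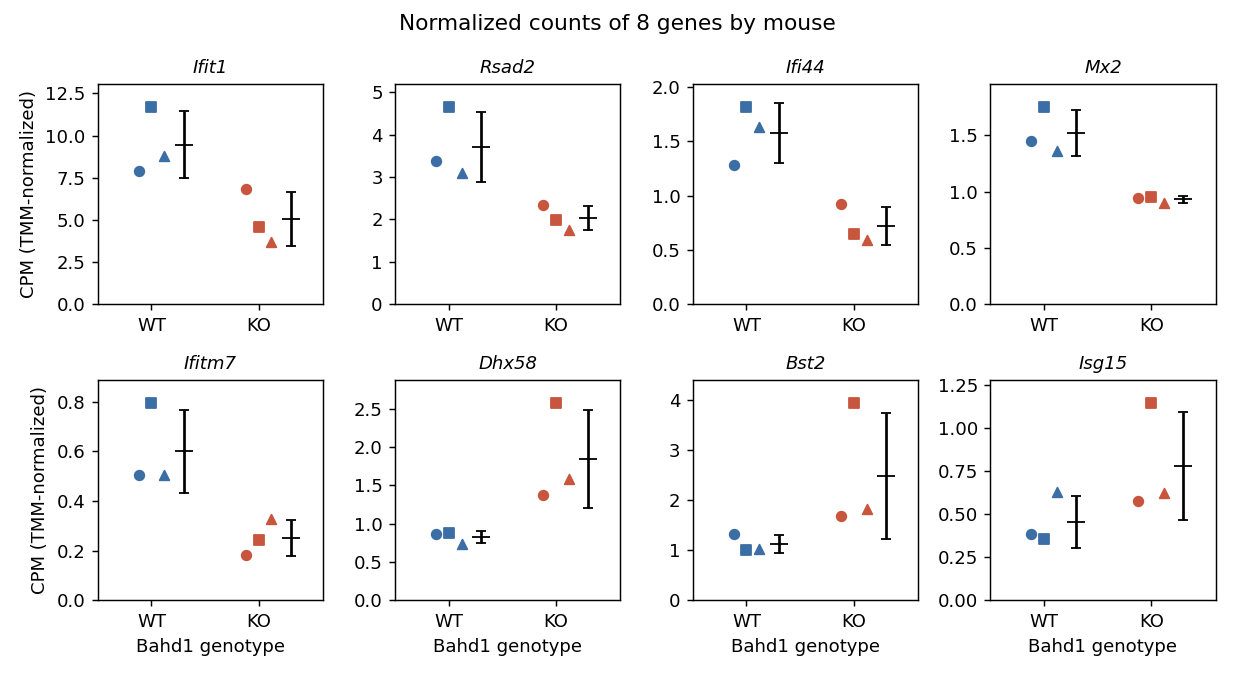
TMM-normalized CPM (vertical axes, from 0) of 8 genes in the 3 Bahd1-WT (blue) and 3 Bahd1-KO (red) mice, with circle, square and triangle for replicates 1, 2 and 3 and black bars for the mean ± SD. Genotypes do not overlap in any panel but Isg15, and Bahd1-KO replicate 2 is the highest mouse for Dhx58, Bst2 and Isg15.

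The 3 cytosolic RNA sensors divided. Ifih1 (MDA5), which senses long double-stranded RNA, had 11.2, 11.6 and 11.3 CPM in Bahd1-WT and 8.62, 5.57 and 7.70 CPM in Bahd1-KO mice (log2 fold change -0.64, SE 0.22, adjusted p = 0.0935). Ddx58 (RIG-I), which senses RNA ends with a triphosphate, had 10.1, 9.96 and 8.92 CPM against 7.35, 5.97 and 7.57 CPM (log2 fold change -0.47, SE 0.20, adjusted p = 0.139). For both sensors every Bahd1-KO value was the lower. Dhx58 (LGP2, ENSMUSG00000017830, chr11:100694884-100704271), a helicase without signalling domains that tunes the other two, had 0.863, 0.875 and 0.736 CPM in Bahd1-WT and 1.38, 2.57 and 1.59 CPM in Bahd1-KO mice. Every Bahd1-KO value of Dhx58 was the higher one, with a log2 fold change of 1.17 (SE 0.29, adjusted p = 0.0634).

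The IFITM proteins, which sit in membranes and hinder fusion of viruses, also divided, 1 of 4 lower. Ifitm7 (ENSMUSG00000065968, chr16:13981699-13986888) had few reads, with counts of 46, 49 and 37 for Bahd1-WT replicates and of 8, 23 and 19 for Bahd1-KO replicates, which is 0.503, 0.794 and 0.505 CPM against 0.184, 0.242 and 0.328 CPM. Its log2 fold change of -1.23 (SE 0.34, adjusted p = 0.0664) was the lowest of the 46. Ifitm3, a restriction factor of influenza virus, had 4.64, 4.29 and 3.41 CPM against 5.13, 8.63 and 5.91 CPM (log2 fold change 0.67, SE 0.26, adjusted p = 0.121), and all its Bahd1-KO values were higher. Ifitm2 had 3.58, 3.11 and 2.88 CPM against 3.31, 7.54 and 5.01 CPM, which overlapped (log2 fold change 0.73, SE 0.31, adjusted p = 0.143). Ifitm2 shares 268 exonic bases with Gm45717 on its strand. Without Bahd1-KO replicate 2 the log2 fold changes were 0.42 for Ifitm3 and 0.39 for Ifitm2. Ifitm1 had 1.35 ± 0.13 and 1.59 ± 0.39 CPM.

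Of the OAS family, whose enzymes make the 2'-5' oligoadenylate that activates RNase L, Oasl2 alone had an unadjusted p under 0.05. It had 9.82, 14.9 and 9.67 CPM in Bahd1-WT and 7.84, 7.37 and 7.63 CPM in Bahd1-KO mice, with no overlap (log2 fold change -0.59, SE 0.23, adjusted p = 0.12), and -0.36 without Bahd1-WT replicate 2. The other 6 members overlapped between genotypes. Oas1a, Oas1c and Oasl1 had log2 fold changes of 0.81, 0.22 and 0.77, Oas3 one of -0.41, and Oas2 and Oas1b values of -0.01 and 0.04 that turned with the scaling, Oas2 under RLE and total counts and Oas1b under upper-quartile factors. Oas3 was the lowest ISG per kilobase, with 4 to 19 counts per library.

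The ubiquitin ligases and PARPs were on the lower side in 5 of 5 genes, although Trim25 (log2 fold change -0.01) turned to 0.01 with RLE factors and to 0.07 with total counts. Parp14, a mono-ADP-ribosyltransferase, had 7.41, 6.87 and 6.35 CPM in Bahd1-WT and 4.41, 3.62 and 4.89 CPM in Bahd1-KO mice (log2 fold change -0.68, SE 0.21, adjusted p = 0.078). Parp9 had 7.76, 8.34 and 7.77 CPM against 6.60, 5.33 and 5.32 CPM (log2 fold change -0.47, SE 0.20, adjusted p = 0.143). Neither gene overlapped between genotypes. Dtx3l, the ubiquitin ligase that works as a complex with PARP9 and is encoded head to head with it, had 11.9 ± 1.0 and 9.72 ± 1.5 CPM, and Trim21, a cytosolic antibody receptor, had 3.37 ± 0.14 and 2.91 ± 0.27 CPM. Both were lower in every Bahd1-KO mouse, at unadjusted p-values of 0.169 and 0.32.

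The 4 transcription factors among the 46 ISGs overlapped between genotypes. Stat2 had 31.3 ± 2.3 and 31.0 ± 5.8 CPM (log2 fold change -0.01, SE 0.19, turning to 0.01 with RLE factors and 0.06 with total counts) and Irf9 12.6 ± 1.7 and 11.6 ± 1.0 CPM (-0.12, SE 0.19). Irf1 had 3.74 ± 0.77 and 4.65 ± 0.95 CPM. Irf7, the master factor of the amplification loop, ran in Bahd1-KO mice from the lowest of all 6 values to the highest, with 2.01, 2.17 and 1.64 CPM in Bahd1-WT and 1.29, 3.21 and 2.04 CPM in Bahd1-KO mice. Leaving out Bahd1-KO replicate 2 turned its log2 fold change from 0.18 to -0.21.

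Among the remaining interferon-induced genes Ifi44, a GTP-binding protein of unknown mechanism (ENSMUSG00000028037, chr3:151730922-151749960), had 1.28, 1.81 and 1.64 CPM in Bahd1-WT and 0.919, 0.651 and 0.587 CPM in Bahd1-KO mice. Its genotypes did not overlap, and the log2 fold change was -1.14 (SE 0.28, adjusted p = 0.0634). Higher values were found for Ifi35, a secreted danger signal and binding partner of NMI, with 1.69, 1.21 and 1.24 CPM against 1.77, 3.49 and 2.18 CPM (log2 fold change 0.85, SE 0.31, adjusted p = 0.107). Lgals3bp, a secreted glycoprotein, had 15.1, 11.9 and 10.2 CPM against 12.99, 26.6 and 18.8 CPM (log2 fold change 0.65, SE 0.28, adjusted p = 0.154). Ifi35 barely separated the genotypes and Lgals3bp overlapped, with Bahd1-KO replicate 2 highest in both. Without that mouse the log2 fold changes were 0.51 and 0.36.

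Ifi27, a mitochondrial protein and the ISG with the highest level per kilobase, had 17.3, 18.9 and 17.5 CPM in Bahd1-WT and 21.1, 24.7 and 19.97 CPM in Bahd1-KO mice. The genotypes did not overlap, but the log2 fold change was 0.29 with an SE of 0.17 (adjusted p = 0.26). On the per-kilobase scale its mean level was 13.6 CPM per kb, followed by Cmpk2 (8.71), Ifit3 (8.12), Ifitm3 (7.87) and Ifitm2 (6.47). Ifi27l2a and Tor3a overlapped between genotypes, with log2 fold changes of 0.58 and -0.07, the latter turning to 0.01 with total counts.

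The fold change of the ISGs followed the GC content of their transcripts. Across the 46 genes the Spearman correlation of log2 fold change with GC content was 0.816, and across all 23940 annotated genes it was 0.745, a description over genes that share the same 6 libraries. In single mice, the correlation of an ISG's level relative to the Bahd1-WT mean with its GC content was 0.409, -0.420 and -0.120 for Bahd1-WT and 0.539, 0.881 and 0.697 for Bahd1-KO, so that the GC trend moved with genotype. A GC effect of library preparation or sequencing and an effect of genotype on these uncorrected fold changes cannot be told apart here. The 22 ISGs under 50% GC were all lower (median log2 fold change -0.55). Of the 24 at or above 50% GC, 8 were lower and 16 higher, with a median of 0.26. This division at 50% was chosen after the values were seen. Its lower side held Herc6, Ifi44, Ifit2, Ifih1, Ifit1 and Ifitm7, and its upper side Bst2, Lgals3bp, Ifi35, Dhx58 and Isg15. The 8 lower ISGs at or above 50% GC were Mx2, Usp18, Oas3, Zbp1, Irf9, Tor3a, Stat2 and Oas2.

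Mx2, Ifi44 and Dhx58, shown because they lie outside it, are set here beside the 25th to 75th percentile of all genes of like GC content. That range leaves as many genes outside as within. Other ISGs also lay below it, among them Ifit1, Rsad2, Usp18 and Oas3, or above it, among them Bst2 and Isg15. From 50 to 52% GC the 25th to 75th percentile of all genes ran from -0.10 to 0.44, and Mx2, in this range, had a log2 fold change of -0.70. In the range of 40 to 42% GC these percentiles ran from -0.76 to -0.35, above the -1.14 of Ifi44. Dhx58, between 52 and 54% GC, had 1.17 where the same limits were 0.07 and 0.72.

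**Figure D3:**
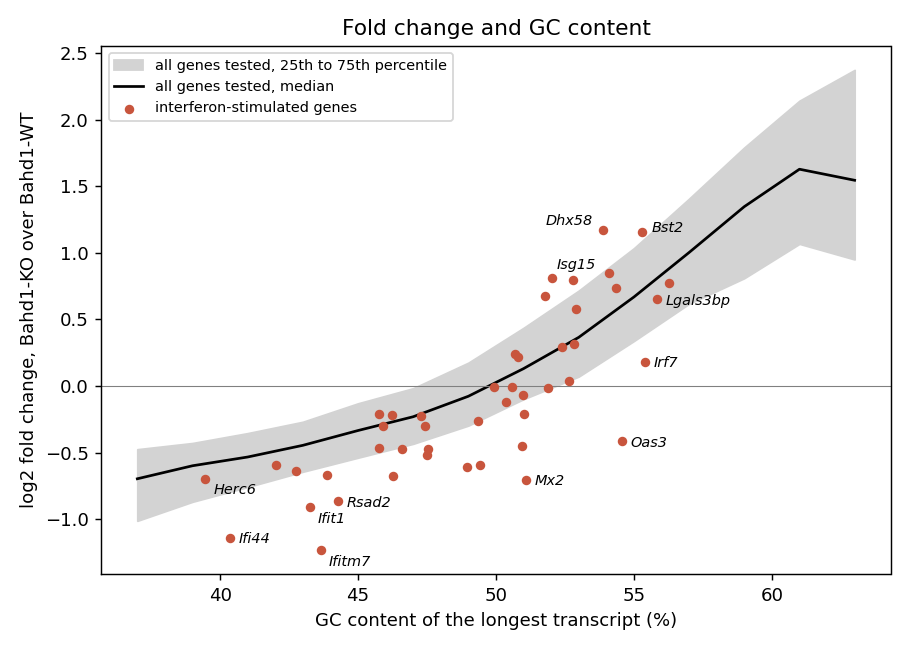
Log2 fold change of Bahd1-KO over Bahd1-WT (vertical axis) against the GC content of the longest transcript in % (horizontal axis). Red points are the 46 interferon-stimulated genes, some of them named, and the line and band give the median and the 25th to 75th percentile of all genes tested in steps of 2% GC. The values of the ISGs increase with GC content along the band, and Ifi44, Mx2 and Oas3 are among those below it and Dhx58 and Bst2 among those above it.

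An offset for GC content and length, fitted in each library to all expressed genes, reduced most of these differences. It moved each gene by an amount that depended on its GC content and length. The median of all genes went from -0.06 to 0.10, and the median of the ISGs from -0.21 to -0.05. Values with the offset are thus to be read beside a median of 0.10 over all genes. The ISG median was thus 0.15 under that of all genes both with and without the offset. With it 30 ISGs were lower, as were 39.1% of all genes, and the correlation with GC content was 0.224. In edgeR's test with the offset 0 of the 46 were called (0.0167% of all genes), and 1 had an adjusted p under 0.1 (8.27% of all genes). At an unadjusted p under 0.05 there were 4 lower ISGs, Mx2, Rtp4, Usp18 and Oasl2 (5.73% of all genes), and 1 higher one, Dhx58 (18% of all genes). All 3 Bahd1-KO values were below all Bahd1-WT values for 9 ISGs (7.6% of all genes) and above them for 3 (21.2% of all genes).

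The ISGs kept their differences to very unequal degrees. Mx2 had a log2 fold change of -0.74 with the offset (SE 0.21, edgeR adjusted p = 0.0889) and -0.70 without. Usp18 had -0.52 and -0.45, Rtp4 -0.48 and -0.61, and Oasl2 -0.44 and -0.59, with and without the offset. Dhx58 had 0.74 with it (SE 0.22, edgeR adjusted p = 0.1) and 1.17 without. DESeq2 with the normal prior and the offset gave adjusted p-values of 0.0334 for Mx2 and 0.0323 for Dhx58, both short of a 2-fold difference, and called 0 of the 46 (1.17% of all genes).

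Oas3, on 4 to 19 counts per library, had the lowest value with the offset, -0.88 (SE 0.62, edgeR adjusted p = 0.428), and -0.41 without. Oas1a had 0.61 with it (SE 0.40, adjusted p = 0.395) and 0.81 without.

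Others lost nearly all of their difference under the offset. Herc6 had -0.01 in place of -0.70, Ifit2 -0.02 in place of -0.59, Ifih1 -0.06 in place of -0.64 and Ifitm2 0.02 in place of 0.73. Bst2 kept 0.31 of 1.16, Ifi44 -0.43 of -1.14, Ifit1 -0.39 of -0.91 and Rsad2 -0.33 of -0.87 (adjusted p-values 0.395, 0.31, 0.25 and 0.389 by edgeR). The IFIT and ISG15 group had a median of -0.09 with the offset, the antiviral effectors -0.12, and the ubiquitin ligases and PARPs 0.13. In 12 ISGs the offset turned the sign, among them Irf7 (from 0.18 to -0.47) and Cmpk2 (from -0.21 to 0.18). How far the offset also removes a difference between genotypes was not tested.

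**Figure D4:**
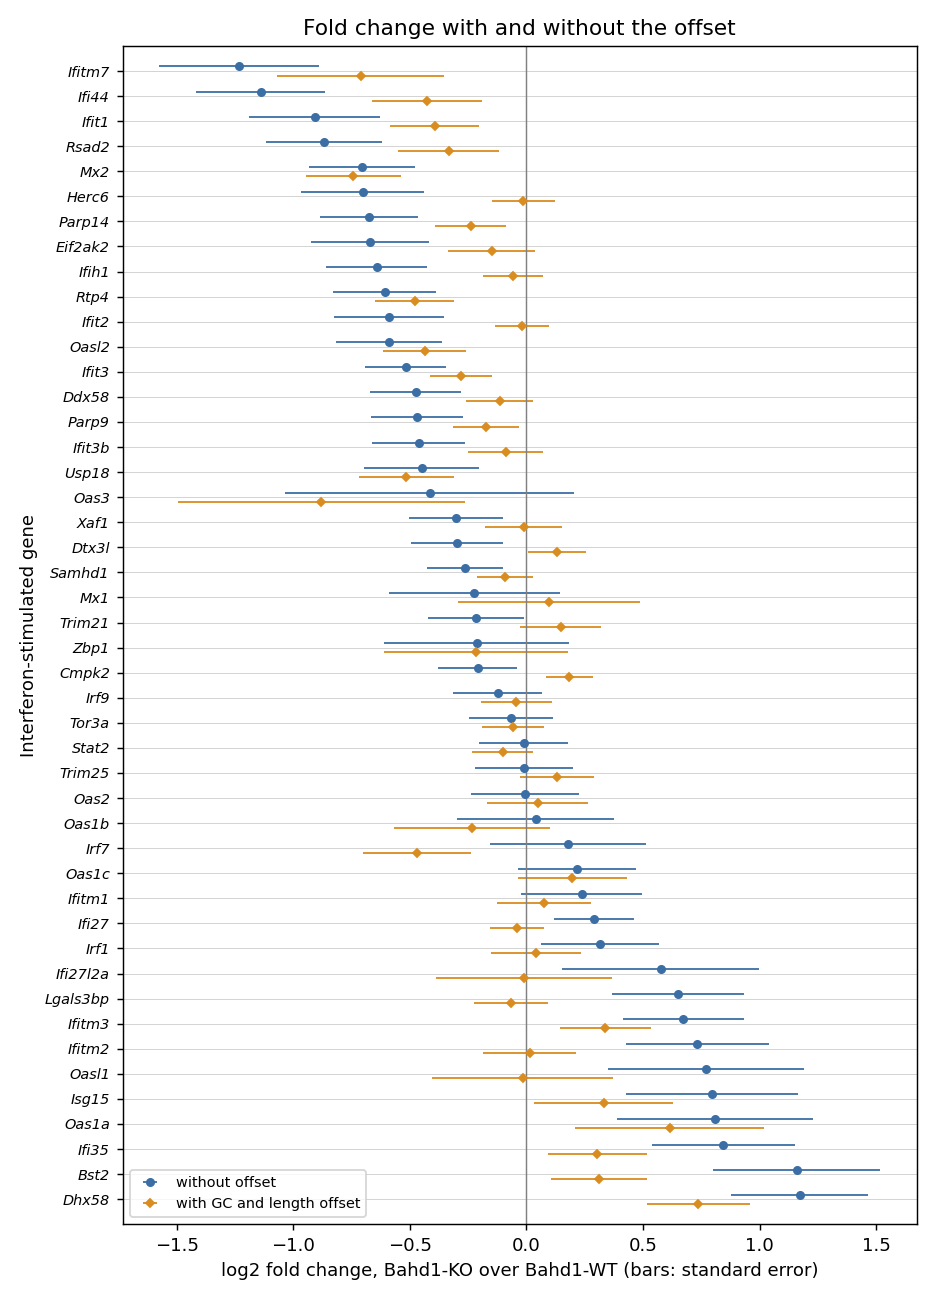
Log2 fold change of Bahd1-KO over Bahd1-WT (horizontal axis) for the 46 interferon-stimulated genes from edgeR without (blue circles) and with (orange diamonds) the GC and length offset, with bars for the SE. Most genes move toward 0 with the offset. The lowest with it are Oas3, which moves away from 0, Mx2 and Ifitm7, and the highest are Dhx58 and Oas1a.

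The rest of the pathway was also read from fixed lists, and 0 genes of any list were called by edgeR. DESeq2 with the prior called 1 JAK or STAT gene, 2 negative regulators and 1 gene of nucleic acid sensing and induction, all higher (9.61% of all genes). With the offset it called 0 of them (1.17% of all genes in either direction). The 21 interferon genes of the table did not reach the filter on counts, and the most reads of any of them in a library were 3, so that the interferons were not detectable at this depth. Of the 6 receptor subunits, 1 had an unadjusted p under 0.05, Ifngr2 of the type II receptor, with 37.6 ± 2.7 and 48.5 ± 2.7 CPM (log2 fold change 0.37, edgeR adjusted p = 0.138, and 0.50 with the offset, adjusted p = 0.0792). It was higher in Bahd1-KO mice, as were 19.9% of all genes at that unadjusted threshold. Ifnlr1 of the type III receptor had a log2 fold change of 0.67 (adjusted p = 0.256). Among 7 JAK and STAT genes, 2 had an adjusted p under 0.1, both higher (14.7% of all genes), namely the kinase Tyk2 (log2 fold change 1.10, 0.29 with the offset) and Stat5b (0.63 and 0.44).

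Negative regulators had a median log2 fold change of 0.57 over 11 genes, and 0.23 with the offset. The lowest p-values there were those of Nlrx1, a mitochondrial inhibitor of MAVS signalling (1.83, and 0.85 with the offset), and Socs1, an inhibitor of JAK kinases (1.90, and 0.72 with the offset), both with an adjusted p under 0.1 and higher (14.7% of all genes). Nucleic acid sensors and inducers gave 3 genes of 18 with an adjusted p under 0.1, all higher, a share near the 14.7% of all genes. First among them by p were Adar, which edits double-stranded RNA (0.72, and 0.45 with the offset), and Ticam1, the adaptor of TLR3 (1.25, and 0.47 with the offset). The ISG15 conjugation partners, 3 genes tested, had values of -0.45 for Arih1 (0.13 with the offset) and 0.63 for Ube2l6 (0.62 with the offset), neither with an adjusted p under 0.1.

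Both related families of interferon-induced genes were lower than the 46 ISGs, without a test of that difference. In the IFI200 family of DNA sensors 9 of 9 genes were lower (median log2 fold change -1.38, and -0.70 with the offset), and 6 of them had an adjusted p under 0.1 (4.77% of all genes were lower at this threshold), but 0 by edgeR with the offset. DESeq2 with the prior called 4 of the 9, all lower (0.909% of all genes), and with prior and offset 0 (1.17% of all genes in either direction). In the fit with prior and offset 3 were lower at an adjusted p under 0.1, as were 713 of all 23975 genes. Mndal had 2.93 ± 0.13 and 1.13 ± 0.27 CPM (log2 fold change -1.38, and -0.70 with the offset) and Ifi213 0.362 ± 0.037 and 0.105 ± 0.029 CPM (-1.79, and -1.08 with the offset). Of the GBP and IRG GTPases, which attack vacuoles of pathogens, 17 of 19 were lower, with a median of -0.54, and -0.14 with the offset, and 6 had an adjusted p under 0.1 (4.77% of all genes), but 0 by edgeR with the offset. DESeq2 with the prior called 2 of these 19, both lower (0.909% of all genes), and 0 with the offset (1.17% of all genes in either direction). F830016B08Rik had a log2 fold change of -2.31 and Gbp4 one of -0.88 (0.318 ± 0.12 and 2.22 ± 0.45 CPM in Bahd1-WT mice). With the offset these were -1.63 and -0.26. The median GC content was 39.8% in the IFI200 family and 43.5% in the GTPases, against 50.5% in the 46 ISGs.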

How the data were processed

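Whole-number counts of reads per gene were deposited by the authors without normalization or filter, from stranded polyadenylated libraries (per the labels and methods) trimmed with cutadapt (version 1.11), aligned to GRCm38 with STAR (2.5.0a) and counted on exons with featureCounts (1.4.6-p3). The methods and their supplement differ on the sequencer and name a second aligner. The mice are separate animals. Groups and replicate numbers came from the titles and genotype labels. Genes with 10 or more counts in sum were tested (23975) with edgeR (4.0.16, R 4.3.3), TMM factors and the quasi-likelihood test on genotype alone, and p-values were adjusted by Benjamini-Hochberg. A call needed an adjusted p under 0.05 and a 2-fold difference. DESeq2 (1.42.0) was an alternative. Lengths and GC content came from GENCODE M21. The offset was a natural spline on GC content (5 degrees of freedom) and log length (3), fitted per library to 13453 genes whose mean log2 CPM was above 1. Depth intervals cover counting error only. The scripts were tested on simulated counts. The ISGs and all gene lists were chosen with earlier results of these data known. Every ISG is named. Values per mouse are given for those with an unadjusted p under 0.05 and for the 5 highest per kilobase, with Isg15 and Irf7 added after their values were seen, and of each other list the 2 genes with the lowest p are named.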

Additional observations from a re-analysis of the deposited data

How the results depend on the processing

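The number of ISGs called rested on the test. It was 0 in the reported test and 2 with total counts in place of TMM (8.37% of all genes), 4 with no filter beyond 1 count (8.45%) and 4 with DESeq2 with or without the prior (10.5% and 11.5%). Leaving out one replicate gave 0 to 7 calls. The 7 came without Bahd1-KO replicate 1 (16.8% of all genes), and were Ifi35, Dhx58, Ifi44, Herc6, Ifit1, Bst2 and Ifitm2. Pathway calls by edgeR were 0, with 1 for total counts (8.37% of all genes) and 0 to 7 with a replicate left out. The 7 pathway calls came without Bahd1-KO replicate 1, where 16.8% of all genes were called. The count at an adjusted p under 0.1 was 10, then 18 with upper-quartile factors, 17 with DESeq2 in either form, 0 with the replicate block, 1 with the offset, 0 with offset and block, 3 with the offset in DESeq2, 0 to 20 with a replicate left out (0 without each Bahd1-WT replicate or Bahd1-KO replicate 3, 4 without Bahd1-KO replicate 2, 20 without Bahd1-KO replicate 1) and 0 to 3 with the offset and a replicate left out, an alternative added after the data were seen. Lower ISGs at an unadjusted p under 0.05 numbered 16, then 6 with the block, 4 with the offset, 1 with offset and block, 4 with the offset in DESeq2, 4 to 15 with a replicate left out (4 without Bahd1-WT replicate 2, 9 without Bahd1-KO replicate 3) and 1 to 9 with the offset as well. Higher ones numbered 6, then 3 with upper-quartile factors, 2 with the block, 1 with the offset, with offset and block or with the offset in DESeq2, 2 to 8 with a replicate left out (2 without Bahd1-WT replicate 2 or Bahd1-KO replicate 2, 3 without Bahd1-WT replicate 3) and 0 to 2 with the offset as well. Counts over all 23975 genes tested also moved. Lower and higher ones at an adjusted p under 0.1 were 1143 and 3527, then 1434 and 4174 with DESeq2 and the prior. They were 6 and 3 with the block, 333 and 1650 with the offset, and 713 and 3426 with the offset in DESeq2. At an unadjusted p under 0.05 they were 2867 and 4760, then 1602 and 3629 with the block and 1374 and 4307 with the offset. For other settings they are not given. The count of lower ISGs ranged from 21 to 34. The median of -0.21 was -0.36 with upper-quartile factors, -0.14 with total counts, -0.05 with the offset alone or with the block, -0.03 with the offset in DESeq2, -0.23 to -0.14 with a replicate left out, and -0.13 to 0.00 with the offset as well, while its distance to the median of all genes stayed between -0.18 and -0.11. The causes were not tested.

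Of 781 log2 fold changes of single ISGs under an alternative, 69 had turned sign, in 20 genes, and 26 genes, 17 lower and 9 higher, turned under none of these. The offset with a replicate left out is not among them. Under RLE factors or DESeq2 the turned values were 0.01 for Oas2, Stat2 and Trim25. Total counts gave 0.07 for Oas2 and Trim25, 0.06 for Stat2 and 0.01 for Tor3a, upper-quartile factors -0.10 for Oas1b, and no filter or the replicate block 0.00 for Oas2. The offset gave -0.23 for Oas1b, 0.05 for Oas2, -0.02 for Oasl1, 0.10 for Mx1, 0.18 for Cmpk2, -0.47 for Irf7, 0.13 for Dtx3l and Trim25, 0.15 for Trim21, -0.04 for Ifi27, -0.01 for Ifi27l2a and -0.07 for Lgals3bp. With offset and block the values were -0.22, 0.06, 0.16, 0.19 and -0.49 for Oas1b, Oas2, Mx1, Cmpk2 and Irf7, and 0.13, 0.15, 0.14, -0.04, -0.06 and -0.01 for Dtx3l, Trim21, Trim25, Ifi27, Lgals3bp and Ifitm2. With the offset in DESeq2 they were -0.15, 0.06, 0.08, 0.20 and -0.38 for Oas1b, Oas2, Mx1, Cmpk2 and Irf7, 0.15, 0.16, 0.14, -0.02 and -0.04 for Dtx3l, Trim21, Trim25, Ifi27 and Lgals3bp, and 0.00, 0.01 and 0.01 for Ifit2, Herc6 and Xaf1. Leaving out one replicate gave -0.17 to 0.22 for Oas1b, -0.06 to 0.09 for Oas2, -0.72 to 0.47 for Oas3, -0.08 to 0.16 for Stat2, -0.12 to 0.07 for Trim25, -0.21 to 0.48 for Irf7, -0.44 to 0.18 for Mx1, -0.58 to 0.05 for Zbp1 and -0.14 to 0.00 for Tor3a. Without Bahd1-KO replicate 2, Oas1a went from 0.81 to 0.51, Oasl1 from 0.77 to 0.49, Ifi27l2a from 0.58 to 0.31 and Ifi27 from 0.29 to 0.19, and without Bahd1-KO replicate 3 Usp18 went from -0.45 to -0.29. Same-numbered samples of the genotypes deviated apart, with correlations of -0.644, -0.656 and -0.144 against -0.093 to 0.629 in other pairs, so that the replicate numbers are taken as names only. With filterByExpr 45 of the 46 ISGs were tested. At this depth Oas3, Oasl1, Oas1a, Zbp1 and Ifitm7 rest on few reads.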
